A study of Sus scrofa with 8 samples.

Results

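The 6 genes described here, IGHM, JCHAIN, MZB1, IRF4, PRDM1 and XBP1, were chosen by name from the 35683 genes of the count tables. Earlier results of these data were known, and the genes were chosen because their products act in antibody secretion or its control. They were read as raw unique molecular identifiers (UMIs, each standing for 1 captured RNA molecule) in nuclei from 8 retinas of 6 female Yucatan minipigs aged 3 to 5 months. All animals received Vitrase, a hyaluronidase, in the vitreous before dosing and systemic methylprednisolone, a corticosteroid, before and weekly after it. Bilateral intravitreal injections then delivered either AAV2.7m8/CAG-GFP, a capsid variant carrying GFP under the ubiquitous CAG promoter, or vehicle buffer. At week 2 both eyes of 1 AAV animal (7221) and 1 vehicle animal (7222) were taken, and at week 4 the left eyes of 2 AAV animals (7248 and 7249) and 2 vehicle animals (7250 and 7251), a label that covers more than 1 collection day. Nuclei were sorted on DAPI from frozen retina, so the measurements are of nuclear RNA plus whatever free RNA entered a droplet.

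Antibody-secreting cells arise when activated B cells switch off the B cell program and enlarge the endoplasmic reticulum. IRF4 and PRDM1 (Blimp-1) are the transcription factors of that switch, and XBP1 drives the unfolded protein response that enlarges the secretory pathway. IGHM encodes the constant region of the IgM heavy chain, MZB1 is an endoplasmic reticulum co-chaperone that helps IgM assemble, and JCHAIN is the joining chain of polymeric IgM and IgA. Several of these genes also have work outside B cells, XBP1 in the stress response of most cells, IRF4 in activated T cells, and PRDM1 in T cells and in developing photoreceptors.

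The 250 bases before the annotated start of XBP1 and JCHAIN are shown because these are members that every retina expressed, and because XBP1 held a searched motif and JCHAIN held none. Sequences are from RefSeq on Sscrofa11.1, the build of the deposited counts, written 5′ to 3′ on the strand of the gene, which is the minus strand for both. Capitals mark letters that match a searched motif on either strand.
XBP1: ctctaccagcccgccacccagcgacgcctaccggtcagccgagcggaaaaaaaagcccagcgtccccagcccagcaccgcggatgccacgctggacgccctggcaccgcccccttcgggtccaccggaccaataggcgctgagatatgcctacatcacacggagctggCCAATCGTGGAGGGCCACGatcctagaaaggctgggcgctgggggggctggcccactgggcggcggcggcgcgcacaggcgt
JCHAIN: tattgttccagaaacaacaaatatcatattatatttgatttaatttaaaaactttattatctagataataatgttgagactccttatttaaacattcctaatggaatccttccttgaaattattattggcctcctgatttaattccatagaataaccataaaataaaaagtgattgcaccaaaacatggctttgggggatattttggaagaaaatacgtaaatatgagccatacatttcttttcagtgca
The windows are chr14:46016527-46016776 for XBP1 and chr8:67448629-67448878 for JCHAIN, with 69.6% and 27.6% G or C. XBP1 held the endoplasmic reticulum stress response element, CCAAT and CCACG with 9 bases between them, 82 to 64 bases before its start, as did 14 of 19556 windows before protein-coding genes (0.0716%). That motif was added to the search after the sequence had been seen. The octamer ATGCAAAT of immunoglobulin promoters (1.24% of windows) and the interferon response element, GAAA repeated with 2 bases between (3.01%), had no exact match in the windows of XBP1, JCHAIN, IRF4 or PRDM1 on either strand. IRF4 (chromosome 7, 133358 to 149609, 80.4% G or C upstream) and PRDM1 (chromosome 1, 72309096 to 72335474) also held no match to the stress response element.

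The tables listed 388491 barcodes over 32 lanes, 4 per retina, of which 350537 nuclei passed the mitochondrial filter, with 36282 to 49200 nuclei and 111704702 to 164085422 UMIs per retina. Over all listed barcodes, before that filter, the median was 1994 to 3128 UMIs per retina. It was lowest in the week 4 vehicle retinas (2029 and 1994), against 2342 and 2613 in the week 4 AAV retinas. Pairs of lanes of different retinas shared 18 to 62 barcodes, like lanes of 1 retina (23 to 65). Nuclei were assigned to classes by fixed marker genes that included none of the 6 members. POU2AF1 was found in 47.3% of plasma-like and 0.133% of rod nuclei, and PAX5 in 73.1% of B-like and 0.387% of rod nuclei. Of 760 plasma-like nuclei in all, 242 had the minimum of 2 markers. Not among the 760 were 285 nuclei with only 1 marker and 102 below the probability limit. A further 247 with retinal markers as well were set apart as mixed.

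In whole-retina sums at week 4, all 6 genes were higher in the AAV-injected than in the vehicle-injected retinas, by 9.31 (log2) for IGHM and by 0.68 to 0.77 for PRDM1, JCHAIN and XBP1. All 6 passed edgeR's quasi-likelihood test at an adjusted p under 0.05, where 6.71% of 26698 tested genes were called higher and the median log2 fold change of all genes was -0.01. IGHM and IRF4 had at most 8 UMIs in a vehicle retina of week 4 and entered the test through the AAV retinas, where they could only come out higher, so the count of 6 carries no weight of its own. A sum over a retina rises with more cells of a type and with more RNA per cell, which cannot be told apart in it. The labels also name each group as a batch of its own, so that batch and group cannot be told apart. The 6 genes fell into 2 patterns, 3 that were close to absent outside the week 4 AAV retinas and 3 that every retina expressed.

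IGHM, the IgM heavy chain, had 5 and 4 UMIs in the left and right vehicle retinas at week 2, 7 and 3 in the AAV retinas at week 2, 4 and 8 in the vehicle retinas at week 4, and 3425 and 6864 in the AAV retinas of animals 7248 and 7249. The week 4 AAV retinas stood apart from the other 6, none of which exceeded 8 UMIs. In CPM (counts per 1000000 UMIs of the same nuclei) the ratio of the 2 groups at week 4 was 643 (counting interval 368 to 1246), the log2 fold change was 9.31 ± 0.56 (SE, n = 2 against 2 animals) and edgeR's adjusted p was 0.000562. At week 2 the same ratio was 1.19 (0.433 to 3.3), from 10 against 9 UMIs, so no difference was detectable there at this depth.

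IRF4, a transcription factor of plasma cell commitment, had 1 and 1 UMIs in the week 2 vehicle retinas, 2 and 3 in the week 2 AAV retinas, 0 and 0 in the week 4 vehicle retinas, and 858 and 1039 in the week 4 AAV retinas. The vehicle level being 0, the difference was at least 475-fold, set against a floor of 3 UMIs over the group, with an edgeR adjusted p of 0.000473. MZB1, the IgM co-chaperone, had 18 and 14 UMIs in the week 2 vehicle retinas, 28 and 31 with AAV at week 2, 12 and 24 with vehicle at week 4, and 371 and 466 with AAV at week 4. Its week 4 ratio was 17.4 (12.5 to 25.1), with a log2 fold change of 4.11 ± 0.38 (SE) and an edgeR adjusted p of 0.00269. MZB1 was already 1.97 times the vehicle level at week 2 (1.26 to 3.13, counting error only), a comparison of 1 animal with 1 that has no replicate check.

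JCHAIN, the joining chain, was found in every retina. It had 22.2 and 20.8 CPM in the week 2 vehicle retinas, 23.8 and 29.8 with AAV at week 2, 23.3 and 22 with vehicle at week 4, and 34.7 and 38.9 with AAV at week 4. The week 4 groups did not overlap, and the difference of 0.71 ± 0.12 (log2, SE) had an edgeR adjusted p of 0.0219. XBP1, the secretory pathway regulator, had 9.62 and 9.35 CPM with vehicle and 14.2 and 13 with AAV at week 2, and 12.1 and 10.1 with vehicle and 17.8 and 20 with AAV at week 4. It was higher in the AAV retinas by 0.77 ± 0.15 (log2, SE, edgeR adjusted p 0.0317), and at week 2 the ratio was 1.43 (1.36 to 1.5, counting error only). PRDM1, Blimp-1, had 4.54 and 4.85 CPM with vehicle and 6.01 and 6.05 with AAV at week 2, and 7.25 and 6.96 with vehicle and 12 and 10.8 with AAV at week 4. Its difference at week 4 was 0.68 ± 0.13 (log2, SE, edgeR adjusted p 0.0315). The calls for JCHAIN, XBP1 and PRDM1, nearest to the threshold, were lost when either vehicle retina of week 4 was left out. Without animal 7249 that of XBP1 was lost too. Such fits have 1 retina in an arm and take their spread from the other arm alone, so a lost call does not show a smaller difference. With both weeks in 1 fit of 6 animals, where the difference is an average over weeks, only IRF4 stayed under the threshold (adjusted p 0.037, against 0.116 for IGHM, in edgeR).

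**Figure D1:**
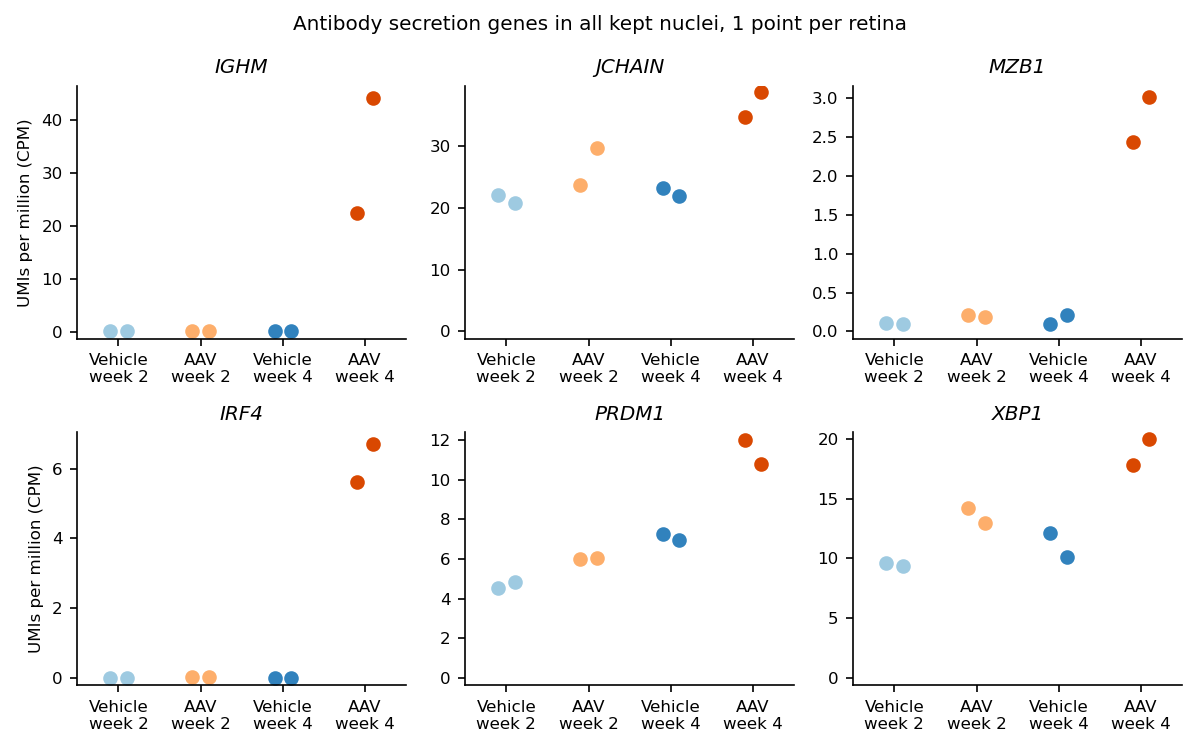
CPM in all kept nuclei (vertical axis, linear, a separate range for each gene) for the 6 genes, with 1 point per retina in 4 groups. IGHM, MZB1 and IRF4 lie near 0 in 6 retinas and are far higher in the AAV week 4 pair, while JCHAIN, PRDM1 and XBP1 are present in all 8 retinas and highest in that pair.

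Whether the difference between AAV and vehicle itself differed between week 2 and week 4 was tested over the 6 animals. None of the 6 genes passed edgeR's threshold, where 0.575% of 27993 genes had a larger difference at week 4, although IGHM, IRF4 and MZB1 had an unadjusted p under 0.05. The adjusted p was 0.08 for IGHM, 0.0861 for IRF4 and 0.116 for MZB1 in edgeR, and the estimates for IGHM and MZB1 were 9.15 and 3.22 (log2). These 3 genes were called by DESeq2, where 922 of 23432 genes had a larger difference at week 4, and by edgeR without animal 7248 (1086 of 27873 genes) or without 7249 (601 of 27879). Week 2 had 1 animal per arm, so the spread in this test came from the week 4 animals, and with either left out the lone AAV animal of week 4 is assumed to vary like the other groups. For JCHAIN, PRDM1 and XBP1 the estimates were 0.45, 0.39 and 0.33, with adjusted p-values of 0.342, 0.432 and 0.555 in edgeR.

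Plasma-like nuclei numbered 326 of 48435 (0.673%) in animal 7248 and 425 of 46856 (0.907%) in animal 7249 at week 4. The other 6 retinas held 0 to 3 plasma-like nuclei each, with 1 in each week 4 vehicle retina. B-like nuclei numbered 275 (0.568%) and 183 (0.391%) in the same AAV retinas and 0 in both vehicle retinas of week 4, where 0 of 43734 and 0 of 41143 nuclei allow shares of up to 0.00686% and 0.00729%. T or NK-like nuclei were 2.07% and 1.69%, and myeloid-like nuclei 2.59% and 1.62%, of the AAV retinas. The AAV and vehicle groups did not overlap for any of the 4 classes, but 2 animals against 2 allow no exact permutation p below 0.33, two-sided.

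Although no member was used to gate them, the plasma-like nuclei carried all 6 genes. IGHM was detected in 210 of 326 (64.4%, exact 95% interval 59 to 69.6) in animal 7248 and 309 of 425 (72.7%, 68.2 to 76.9) in animal 7249. IRF4 was detected in 52.1% (46.6 to 57.7) and 50.8% (46 to 55.7), XBP1 in 42.3% (36.9 to 47.9) and 41.4% (36.7 to 46.3), and PRDM1 in 29.8% (24.8 to 35) and 35.8% (31.2 to 40.5). MZB1 was detected in 24.5% (20 to 29.6) and 24.2% (20.2 to 28.6). For these 5 genes the intervals of the 2 animals overlapped. JCHAIN was the exception, at 19.3% (15.2 to 24) in 7248 and 29.4% (25.1 to 34) in 7249. All these intervals cover counting error in 1 retina each, and the plasma-like nuclei had a median of 1106 and 1278 UMIs.

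Apart from IGHM, taken up later, these shares can be set beside the same gene in rods, which make no antibody and were deeper, with a median of 1931 and 2179 UMIs against 1106 and 1278 in plasma-like nuclei. In rods IRF4 was found in 0.212% and 0.137%, MZB1 in 0.282% and 0.402%, PRDM1 in 0.732% and 0.725%, and XBP1 in 3.31% and 4.11%. JCHAIN was found in 5.89% and 7.67% of rods and, thinned to 500 UMIs, in 1.38% and 1.71% of rods against 10.7% and 17.9% of plasma-like nuclei. In CPM, plasma-like nuclei had 846 and 688 of IRF4 against 1.23 and 0.62 in rods, 246 and 180 of MZB1 against 1.29 and 1.65, and 258 and 398 of JCHAIN against 29.1 and 34.2. Unthinned, rods had the lowest JCHAIN and XBP1 shares of the 8 retinal classes in both retinas. The highest were 34.4% and 39.2% for JCHAIN and 17.6% and 25.4% for XBP1. These were in deeper nuclei, astrocytes in 7248 and ganglion cells in 7249. In cones PRDM1 was found in 13.4% and 12.4%.

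IGHM in B-like nuclei was found more often in animal 7249 than in 7248. The same order held in rods (3.61% in 7248 and 8.17% in 7249) and in myeloid-like nuclei (8.94% and 13.2%). Of B-like nuclei, IGHM was detected in 27 of 275 (9.82%, 6.57 to 14) in animal 7248 and in 66 of 183 (36.1%, 29.1 to 43.5) in animal 7249. Of the 27 in 7248, 23 held 1 UMI, and the highest count was 4. The B-like intervals, which cover counting error only, do not overlap. The B-like shares were 4.36% and 18.6% after thinning every nucleus to 500 UMIs, and 5.85% and 24.1% thinned to 1000. Before thinning, the same order held for IRF4 (4.36% and 13.1%), PRDM1 (4% and 15.8%), XBP1 (3.27% and 14.2%), JCHAIN (5.82% and 14.2%) and MZB1 (2.91% and 7.1%). The unthinned intervals of MZB1 overlap (1.26 to 5.65 and 3.84 to 11.8). The median depth was 1193 UMIs in 7248 and 1501 in 7249. Thinned to 500 UMIs, JCHAIN was found in 1.82% and 6.01%, MZB1 in 1.09% and 1.64%, IRF4 in 2.55% and 4.37%, PRDM1 in 1.09% and 5.46% and XBP1 in 0.727% and 6.56%. Thinned to 1000, over 171 and 141 nuclei, they were found in 5.85% and 6.38% (JCHAIN), 2.34% and 4.26% (MZB1), 4.09% and 6.38% (IRF4), 2.92% and 7.8% (PRDM1) and 1.75% and 9.93% (XBP1). Each value is 1 animal, and the thinned values carry no interval here. In ratio, the gaps for IRF4 and MZB1 were smaller at both thinned depths than before thinning. Those for JCHAIN and PRDM1 depended on the depth chosen.

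T or NK-like nuclei had IGHM in 45 of 1001 (4.5%) and 88 of 792, against 3.61% and 8.17% of rods in the same retinas. Thinned to 500 UMIs, the shares were 2.3% and 4.67% in T or NK-like nuclei and 1.03% and 2.11% in rods. In plasma-like nuclei they were 45.7% and 51.3%. Thinning cuts deeper nuclei more, and rods had a median of 1931 and 2179 UMIs against 1118 and 1102 in T or NK-like nuclei. The IGHM share of rods changed little with depth, so the thinned gap between rods and T or NK-like nuclei cannot be read as a difference in IGHM. IRF4, which activated T cells also use, was found in 4.1% and 4.29% of them, against 0.638% and 1.06% of myeloid-like nuclei. PRDM1 was found in 9.89% and 8.84% of T or NK-like and 9.98% and 8.97% of myeloid-like nuclei in the AAV retinas.

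Plasma-like nuclei often held several of the 6 genes at once. With both AAV retinas of week 4 pooled, 687 of 751 had at least 1 member, 549 (73.1%) at least 2 and 6 all 6. At least 3 were found in 143 of 326 (43.9%, 38.4 to 49.4) in animal 7248 and in 222 of 425 (52.2%, 47.4 to 57.1) in 7249. In the B-like gate at least 3 were found in 4 of 275 nuclei (1.45%, 0.398 to 3.68) in animal 7248 and in 26 of 183 (14.2%, 9.5 to 20.1) in 7249, and in rods of both in 26 of 49048 (0.053%). Of each retina's plasma-like nuclei, 76.7% in 7248 and 76.9% in 7249 had a UMI of at least 1 of the 3 transcription factors IRF4, PRDM1 and XBP1, and 10.1% and 10.8% had all 3. IGHM together with IRF4 was found in 38.3% and 41.2%.

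With the nuclei of both animals pooled, plasma-like nuclei with IGHM held each of the other 5 genes more often than those without. IRF4 was found in 57.8% (53.4 to 62.1) of the plasma-like nuclei with IGHM and in 37.1% (30.8 to 43.6) of those without. XBP1 was found in 47% (42.7 to 51.4) and 30.2% (24.3 to 36.5), and JCHAIN in 30.1% (26.1 to 34.2) and 13.8% (9.63 to 18.9). Given XBP1, however, JCHAIN was found in 25.2% (20.5 to 30.3) against 24.9% (21 to 29.3) without XBP1, and MZB1 in 27.1% against 22.4%. Plasma-like nuclei with IGHM were also deeper (median 1297 UMIs) than those without (1017). The intervals cover counting error only, and the pooled animals differed in their JCHAIN share. The parts of depth and of animal in co-detection were not tested.

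**Figure D2:**
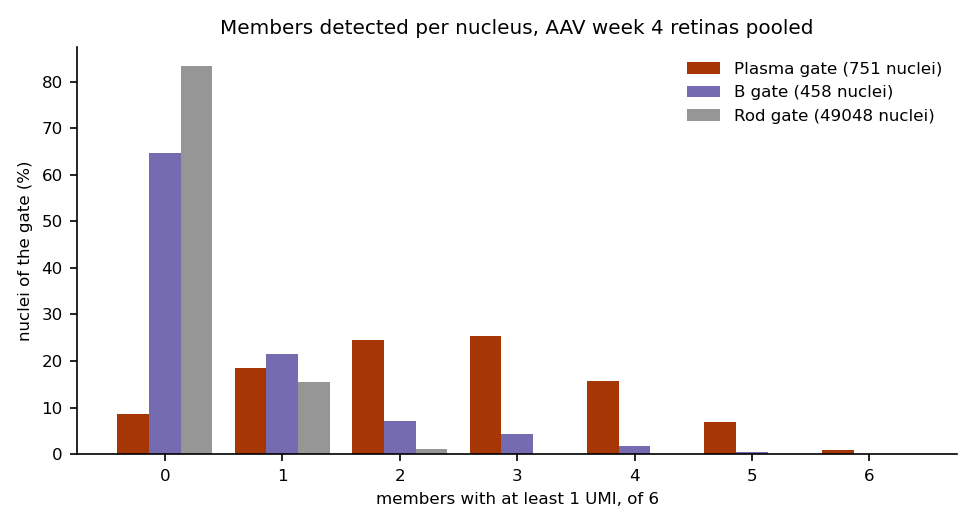
Share of nuclei (vertical axis, percent) by the number of the 6 genes with at least 1 UMI (horizontal axis) for the plasma-like, B-like and rod gates, with both AAV week 4 retinas pooled. Plasma-like nuclei most often hold 2 or 3 members, while most B-like and rod nuclei have none.

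IGHM was not confined to the immune gates. In animal 7248 it was detected in 1432 of 39184 nuclei of the 8 retinal classes and in animal 7249 in 3362 of 40705. Rods had it in 3.61% (3.37 to 3.86) and 8.17% (7.84 to 8.51), cones in 3.39% and 7.89%, bipolar nuclei in 3.57% and 8.61%, amacrine nuclei in 4% and 8.56%, and Müller glia in 3.57% and 10.7%. The other retinal classes had 3.39% to 8.02% in 7248 and 7.19% to 9.23% in 7249, on 130 to 262 nuclei each. Every one of the other 6 retinas had at most 6 IGHM UMIs in these classes together.

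Counted per nucleus rather than in CPM, retinal IGHM varied less between classes than depth did, from 0.0355 to 0.0916 UMIs per nucleus in 7248 and from 0.0845 to 0.126 in 7249. Rods (median 1931 and 2179 UMIs) had 0.0396 and 0.0882 IGHM UMIs per nucleus, and horizontal cells (9799 and 10335) had 0.0395 and 0.101. Retinal ganglion cells, the deepest class at 20149 and 20820 UMIs, had 0.0775 and 0.115 from 11 and 15 UMIs. In CPM, rods had 17.8 and 35.1 and ganglion cells 3.64 and 5.37. Among rods of animal 7249, the IGHM share was 7.75% (7.26 to 8.27) from 1000 to below 2000 UMIs, 8.4% (7.92 to 8.9) from 2000 to below 4000 and 9.04% (7.96 to 10.2) from 4000 to below 8000. In the same bins JCHAIN went from 5.6% (5.18 to 6.05) through 8.12% (7.64 to 8.61) to 14% (12.7 to 15.4). In animal 7248 the IGHM shares were 3.33%, 3.81% and 4.24%, and those of JCHAIN 3.97%, 7.28% and 13.1%. The outer bins held few rods. In 217 and 222 rods below 1000 UMIs IGHM was found in 5.53% (2.89 to 9.46) and 4.5% (2.18 to 8.13), and in 64 and 126 rods of 8000 UMIs or more in 6.25% and 10.3%, against 34.4% and 20.6% for JCHAIN there.

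**Figure D3:**
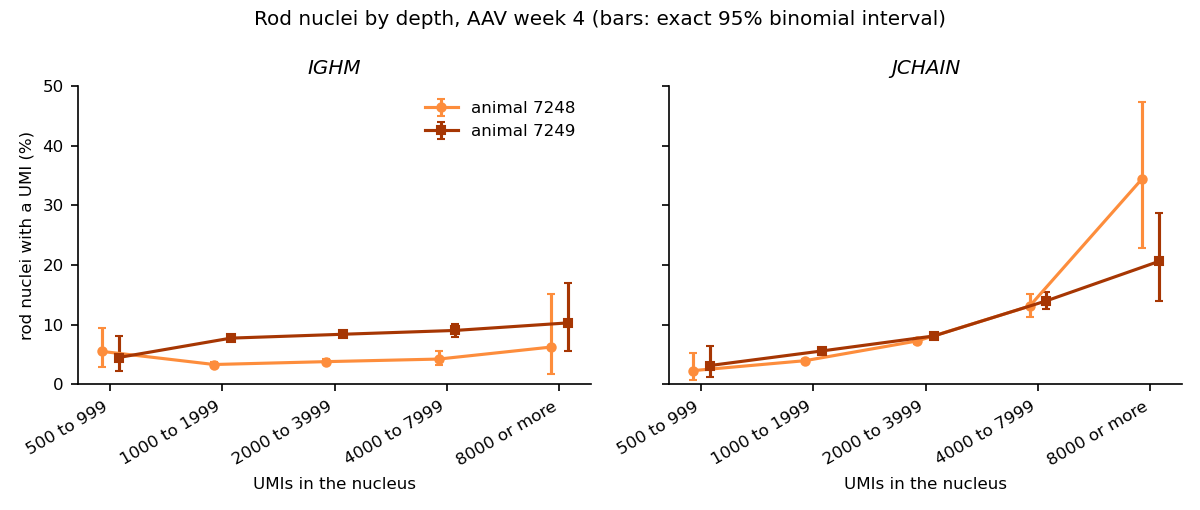
Share of rod nuclei with at least 1 UMI (vertical axis, percent) of IGHM (left) and JCHAIN (right) by the UMIs in the nucleus (horizontal axis, bins), for the AAV retinas of week 4, with exact 95% binomial intervals. From the second bin to the fourth IGHM goes from 3.33% to 4.24% in 7248 and from 7.75% to 9.04% in 7249, and JCHAIN from 3.97% to 13.1% and from 5.6% to 14%, while the outer bins have wide intervals.

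The retinal nuclei with IGHM mostly held a lone UMI, 1357 of 1432 (94.8%) in 7248 and 3109 of 3362 (92.5%) in 7249. Among IGHM-positive plasma-like nuclei, 36.7% and 29.1% held 1 UMI, and the highest counts in this gate were 32 and 46. The highest counts of the retinas lay outside it, 49 in an unassigned nucleus of 7248 and 52 in a myeloid-like nucleus of 7249. A rod of 7248 held 24. Of the 87 nuclei with 10 or more IGHM UMIs, 54 were plasma-like, 15 mixed, 9 unassigned and 3 B-like, and 60.9% of the 87 also had IRF4. Plasma-like nuclei were 0.673% and 0.907% of all nuclei and held 22.1% and 21.7% of all IGHM UMIs, while the retinal classes held 45.8% and 53.4%. For IRF4 the plasma-like nuclei held 42.4% and 44.5%, and the retinal classes 11.4% and 7.89%. For MZB1 these were 28.6% and 26% against 34.2% and 41.8%.

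The retinal share of IGHM varied between the 4 lanes of a retina, from 2.49% to 4.29% in 7248 and from 6.5% to 11.3% in 7249, over lanes that held 66 to 89 and 88 to 128 plasma-like nuclei. The ratio of IGHM to another gene in the same nuclei also differed between classes. IGHM UMIs were 6.81 and 5.58 times the JCHAIN UMIs in plasma-like nuclei, 2.19 and 5.24 times in B-like nuclei, 0.612 and 1.03 times in rods and 0.106 and 0.279 times in Müller glia. No IRF4 UMI was found in rods of the vehicle retinas (0 of 15677 and 0 of 9589, which allows up to 0.0191% and 0.0313% of rods with a UMI). In the AAV retinas the ratio of IGHM to IRF4 UMIs was 2.08 and 3.23 in plasma-like nuclei and 14.5 and 56.7 in rods. Rods thus held less IRF4 beside their IGHM than plasma-like nuclei did.

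**Figure D4:**
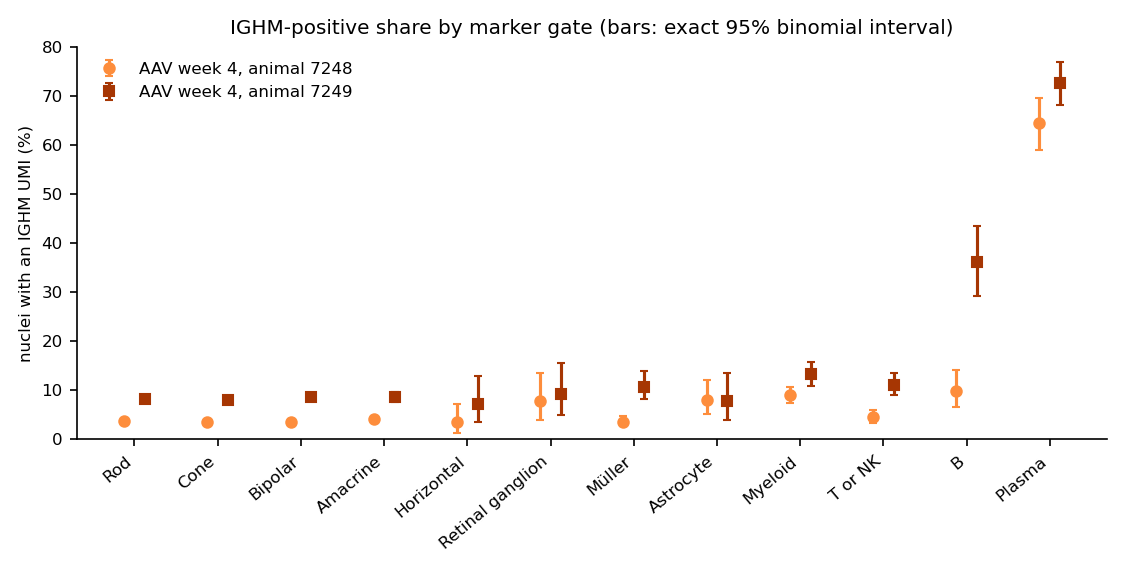
Share of nuclei with at least 1 IGHM UMI (vertical axis, percent) in 12 marker gates for the AAV retinas of week 4, with exact 95% binomial intervals. The plasma-like gate reaches 64.4% and 72.7%, the B-like gate 9.82% and 36.1%, and the 8 retinal gates lie between 3.39% and 10.7%.

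Within classes, week 4 sums were tested where every retina had at least 20 nuclei, in the 8 retinal classes and myeloid-like nuclei. Over these 9 classes, members were called higher in edgeR 16 times and lower 0 times. A member enters a class only with enough UMIs, which for IGHM, IRF4 and MZB1 came from the AAV retinas, so the count over members that entered carries no weight of its own. IGHM entered 8 classes and was higher in 7, all but myeloid-like nuclei (adjusted p 0.0961), where 5.92% of genes were called higher. The share of all tested genes called higher was 6.14% in rods, 0.848% in cones, 1.45% in bipolar, 1.73% in amacrine, 2.12% in ganglion, 10.5% in Müller, 7.95% in astrocyte and 2.80% in horizontal nuclei. IRF4 entered and was called in rods and bipolar nuclei, and MZB1 was called in rods (adjusted p 0.00755) and not in cones (0.0553) or bipolar nuclei (0.0874).

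Whichever of the 4 retinas was left out, IGHM was called again in rods, cones, bipolar, amacrine and Müller nuclei. MZB1 was called again in rods. IGHM and MZB1 entered the test through the AAV retinas and could only come out higher. The repeated calls therefore carry no weight of their own. Leave-out fits within classes, here and below, have a lone retina in an arm and take their spread from the other arm alone. A call kept or lost in them does not show how firm a difference is. Of the leave-out fits, IGHM in ganglion cells was called only in that without 7251. It was not called without 7248 or 7250 (edgeR adjusted p 0.171 and 0.0768) nor in DESeq2 (0.264), and had too few UMIs to enter the test without 7249. In astrocytes it was called only without 7249, not without 7250 or 7251 (0.0545 and 0.0812, edgeR), and did not enter the test without 7248. In the fit of 6 animals with week as a covariate IGHM was still called in cone, bipolar, amacrine and Müller nuclei, while in rods 0 of 6 members were called by edgeR (adjusted p 0.162 for IGHM and 0.196 for MZB1, with 5 members at an unadjusted p under 0.05). IRF4 was not called in rods without 7251 (0.0631), nor in bipolar nuclei whichever retina was left out (0.0548 to 0.139, edgeR).

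JCHAIN was present in every retinal class of every retina, also where no plasma-like nucleus was found. Whether every UMI counted for it came from its own transcript was not checked here, as neither the annotation used for counting nor the reads were at hand. In the vehicle retinas of week 4 it was highest in CPM in myeloid-like nuclei (55.7 and 68.6, from 5 and 7 UMIs), astrocytes (65.5 and 42) and Müller glia (48.4 and 37). Rods had 17.4 and 18.5, cones 17.2 and 18.5, and ganglion cells 10.4 and 6.71. The AAV retinas of week 4 had 29.1 and 34.2 in rods, 36.9 and 42.8 in bipolar nuclei, 36.5 and 37 in amacrine nuclei and 64.1 and 79.6 in Müller glia, each above both vehicle retinas. JCHAIN was called higher in 5 of 9 classes by edgeR, in rods (log2 0.93, adjusted p 0.0179), bipolar (0.77, 0.0317), amacrine (0.90, 0.00392), ganglion (1.23, 0.0457) and Müller nuclei (0.72, 0.0245). In astrocytes the difference was 0.02 ± 0.25 (adjusted p 0.98), and in horizontal cells 1.24 (adjusted p 0.0502). Myeloid-like nuclei had 31.5 and 34.5 CPM with AAV, below both vehicle retinas, and the difference did not pass (log2 -0.74 ± 0.48, edgeR adjusted p 0.408). Of these 5 calls only that in amacrine nuclei was made again whichever retina was left out. That in rods was lost without 7250 or 7251 (adjusted p 0.0558 and 0.0775, edgeR), and those in bipolar, ganglion and Müller nuclei were each lost in 3 of 4 such fits. Of all JCHAIN UMIs, retinal classes held 77.6% and 81% in the AAV and 83.2% and 81% in the vehicle retinas of week 4, against 2.09% and 4.43% in plasma-like nuclei. The median Müller nucleus held 5584 and 5661 UMIs with AAV against 2321 and 2089 with vehicle. Thinned to 500 UMIs, JCHAIN was found in 3.65% and 3.92% of Müller nuclei with AAV and 2.14% and 1.95% with vehicle. Thinned to 1000, the shares were 5.87% and 7.42% against 4.49% and 3.41%. The part of depth in the JCHAIN difference was not tested.

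PRDM1 in retina was mainly a cone gene in these counts. It was found in 9.87% (9.14 to 10.6) and 8.09% (7.46 to 8.76) of cones of the week 4 vehicle retinas, against 0.313% and 0.271% of rods, 0.115% or less of Müller glia and 0.493% or less of bipolar nuclei. Cones held 82.5% and 81.2% of all PRDM1 UMIs there, and 43.5% and 40.6% in the AAV retinas, where plasma-like nuclei held 8.37% and 13.5%, T or NK-like 7.94% and 5.46% and myeloid-like 8.26% and 5.58%. In cones themselves the level was 35.1 and 34.1 CPM with vehicle and 45.3 and 34 with AAV, and the difference did not pass (log2 0.26 ± 0.14, edgeR adjusted p 0.379). In rods PRDM1 was higher with AAV (1.85 and 1.54 against 3.47 and 3.07 CPM, log2 1.04 ± 0.26, edgeR adjusted p 0.0456), a call lost whichever of the 4 retinas was left out.

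XBP1 was spread over all classes. In CPM it was 15.4 and 10.4 in rods, 9.17 and 11.5 in cones, 14.3 and 9.44 in Müller glia and 15.7 and 15.6 in astrocytes with vehicle at week 4, and 16 and 17.3, 15.1 and 12.7, 14.6 and 17.8, and 19.7 and 17.5 with AAV. No class passed edgeR's test for it (0 of 9 in edgeR and 0 in DESeq2, with an unadjusted edgeR p under 0.05 in cone, bipolar, amacrine, horizontal and ganglion nuclei), and its log2 estimates were between 0.34 and 1.28, all positive. In plasma-like nuclei it reached 481 and 386 CPM.

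**Figure D5:**
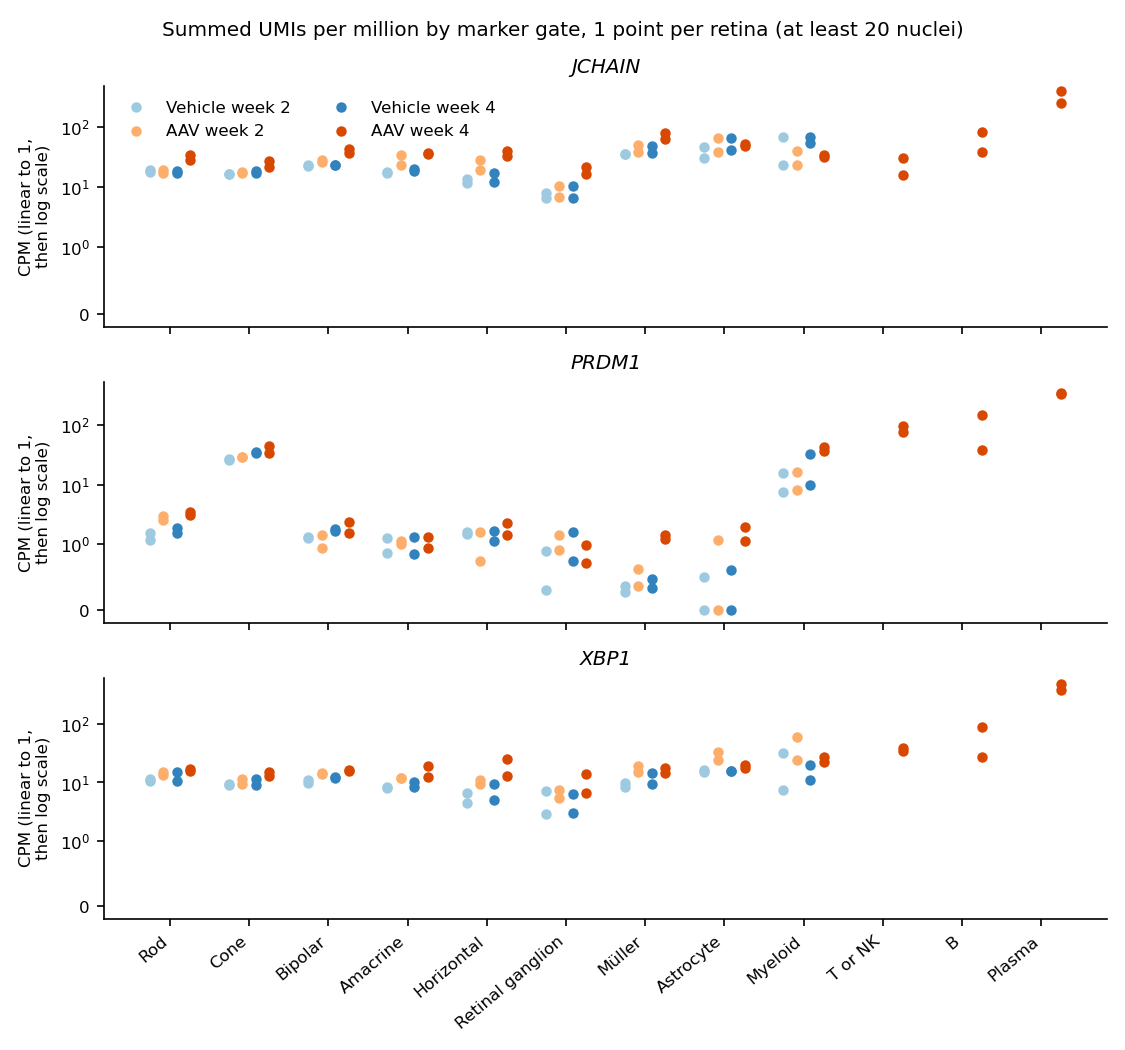
CPM (vertical axis, linear up to 1 and logarithmic above) of JCHAIN, PRDM1 and XBP1 in 12 marker gates, 1 point per retina with at least 20 nuclei in the gate, coloured by group. PRDM1 stands out in cones among the retinal gates, JCHAIN and XBP1 are found in every retinal gate, and all 3 are highest in plasma-like nuclei of the AAV retinas at week 4.

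Genes with the pattern most like each member were ranked by Pearson's r of log2(CPM + 1) over 78 class by retina sums of at least 20 nuclei, which share libraries and depth. For IRF4 the leading genes were POU2AF1 (0.97), the B cell octamer coactivator, SLAMF7 (0.967), a surface receptor of plasma cells, and MZB1 (0.961). For MZB1 they included POU2AF1 (0.962) and IRF4 (0.961). POU2AF1 and SLAMF7 were among the markers that define the plasma-like class, so their likeness over class sums is partly fixed by the assignment. The 5 most like IGHM all lacked a symbol in the files, led by ENSSSCG00000036224 (0.959, 30265 UMIs) and ENSSSCG00000053053 (0.956). IGHM was the only immunoglobulin chain gene listed by symbol, so light chains and other heavy chains were not analysed here. JCHAIN was most like RRBP1 (0.802), a ribosome-binding protein of the endoplasmic reticulum, followed by NOPCHAP1 (0.786), ARF4 (0.771), XBP1 (0.767) and ACSS1 (0.756). XBP1 itself was most like HSP90B1 (0.874), the endoplasmic reticulum chaperone GRP94, followed by S100PBP (0.847), APMAP (0.832), ARF4 (0.828) and SEL1L (0.827). PRDM1 was most like CUL1 (0.873), CAPRIN1 (0.873), SIRT7 (0.86) and AFTPH (0.857), with a gene without a symbol among its 5.

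Other genes of antibody-secreting cells were read from 5 lists in the same comparison, week 4 AAV against vehicle in whole retina, where 6.71% of 26698 tested genes were called higher. Genes nearly without UMIs in the vehicle retinas, among them POU2AF1, CD79B, MS4A1, TNFRSF13C, ICOS, CD40LG and IL10, entered the test through the AAV retinas and could only come out higher, so the counts and medians of the lists are descriptions. Of 12 tested plasma cell genes 8 were higher and 0 lower, with a median log2 fold change of 1.76 against -0.01 over all genes. POU2AF1 had 3 and 1 UMIs with vehicle and 651 and 775 with AAV (log2 7.99 ± 0.39, edgeR adjusted p 0.000328). SLAMF7 was higher by 3.93, CD38, an ectoenzyme of plasma and other immune cells, by 3.44, SDC1 (CD138) by 2.07, TENT5C by 1.95 and TNFRSF13B (TACI) by 1.88. Of these, POU2AF1, SLAMF7, CD38, SDC1, TENT5C and TNFRSF13B were also gate markers.

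Of 15 B cell identity genes 9 were higher and 0 lower, beside 6.71% of all genes called higher (median 2.26, the value of BANK1). CD79B, a chain of the B cell receptor, had 0 and 0 UMIs with vehicle and 81 and 70 with AAV, and MS4A1 (CD20) had 1 and 0 against 170 and 170. CIITA, which antigen-presenting cells of other kinds also use, was higher by 4.88, BLK by 4.08, CD22 by 3.97 and SPIB by 3.70. Myeloid-like nuclei were more frequent in the same retinas, and their part in the CIITA and SPIB values was not tested.

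Of 22 secretory pathway and unfolded protein response genes 3 were higher and 0 lower, beside 6.71% of all genes, with a median of 0.39. The 3 were TXNDC5 (0.90 ± 0.14), a disulfide isomerase, EDEM1 (0.82 ± 0.12), which sorts misfolded glycoproteins, and ERN1 (0.82 ± 0.10), the IRE1 sensor that splices XBP1 RNA. Of 12 B cell survival and help genes 5 were higher, among them TNFSF13B (BAFF, 125 and 158 UMIs with vehicle, 1850 and 1320 with AAV) and CXCR4, a homing receptor (5 and 3 against 228 and 120). ICOS had 1 and 1 against 735 and 740 UMIs, CD40LG 1 and 0 against 49 and 45, and IL10 1 and 0 against 36 and 38. T cells also use these 3 genes. T or NK-like nuclei were 0% and 0.00243% of nuclei in the vehicle and 2.07% and 1.69% in the AAV retinas of week 4, and their part in the ICOS, CD40LG and IL10 values was not tested. Of 5 antibody receptor genes 2 were higher, TRIM21, an intracellular antibody receptor that interferon also induces, by 3.12, and FCER1G by 2.00. TRIM21 was high at week 2 as well, with 3934 and 6716 UMIs with AAV and 373 and 412 with vehicle, when IGHM had 7 and 3 UMIs in those AAV retinas.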

How the data were processed

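Retinal nuclei were profiled with 10x single-nucleus RNA sequencing. The deposited files hold raw UMI counts per gene and barcode that the authors made with Cell Ranger 8.0.0 on Sscrofa11.1 with the EGFP sequence added, as filtered barcodes, so that ambient droplets outside that filter were not used here. The 6 genes and all gene lists were chosen with earlier results of these data known, and named genes follow a fixed rule (the 6 members, the called genes of each list up to 6 by size of change, and, of the 5 genes most like each member, those with a symbol, with 2 identifiers for IGHM).

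Barcodes with a high mitochondrial share were removed per retina with a mixture model (posterior above 0.75). Nuclei were assigned to 14 classes by multinomial profiles over 126 marker genes, at a posterior of at least 0.9 and with at least 2 markers of the class, and nuclei with immune and retinal markers were set apart as mixed, by a rule tightened after its first counts were seen. No doublet caller was run. The endothelial or mural and pigment epithelium gates were not compared.

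Counts were summed per retina (per animal for the test of treatment by week) and tested with edgeR 4.0.16 (quasi-likelihood, TMM, filterByExpr, Benjamini-Hochberg over all genes, threshold 0.05) for week 4, 2 animals against 2. Week 2 had 1 animal per arm and was not tested. The test was tried on simulated data, with gene variances smoothed along the mean after a first simulation, with unsmoothed variances, in which more of the calls were false than the threshold allows. With smoothed variances the false share was still above the threshold in whole retina, though not in rods. The fit was not changed, and calls just under the threshold are the least certain. DESeq2 1.42.0, RLE factors, no filter, all barcodes, 3 markers, nuclei of at least 1000 UMIs, thinning to 500 or 1000 UMIs and leaving out each retina were tried as alternatives. Binomial and Poisson intervals are exact at 95% and cover counting error only, as does the floor of 3 UMIs. Upstream sequences came from RefSeq. IGHM was not found there by symbol, and 1 other member's upstream sequence and 1 further motif searched are not reported here.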

Additional observations from a re-analysis of the deposited data

Results flagged for a closer look

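The barcodes removed by the mitochondrial filter entered no main comparison. All 6 genes were found in them more often in the week 4 AAV than in the week 4 vehicle retinas. The exact 95% intervals did not overlap, but cover only counting error within a retina, with 2 animals per arm. No share over all genes was computed for these barcodes, so the count of 6 carries no weight of its own. IGHM was found in 6.56% of 4007 removed barcodes of animal 7248 and 13% of 3498 of animal 7249, against 0 of 5286 and 0 of 5345 with vehicle. IRF4 was found in 2.32% and 2.74%, against 0 in both vehicle retinas. MZB1 was found in 1.12% and 1.97%, against 0% and 0.0748%. JCHAIN was found in 5.64% and 7.06%, against 3.48% and 3.11%. PRDM1 was found in 4.22% and 3.77%, against 0.87% and 0.823%, and XBP1 in 5.17% and 6.2%, against 2.93% and 2.6%. The classes of these barcodes were used only in the alternative with all barcodes.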

How the results depend on the processing

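With 2 animals per arm at week 4 and counting intervals only within a retina, the data limit what can be said of small differences and of the B-like values, which differ between animals. Of 6 members called in whole retina, leaving out 1 retina left 3 to 6, and 6 animals with week as a covariate left 1, a fit in which the difference is an average over weeks. Calls within classes numbered 16, against 9 to 12 with a retina left out and 6 in the 6-animal fit (none in rods), totals that include calls not among the 16. For treatment by week, 0 members were called in edgeR, 3 in DESeq2 and 0 to 3 with a retina left out. RLE factors, no filter and all barcodes left the whole-retina count at 6. Other than these counts, 404 of 476 fold changes kept their side of the threshold, 52 lost and 20 gained a call, and 0 called ones turned direction. Direction was not compared for fold changes that were not called in the main fit. The AAV share of B-like nuclei (0.479%) moved to 0.33% with 3 markers, 0.338% in nuclei of at least 1000 UMIs and 0.607% with mixed nuclei counted, and that of plasma-like nuclei (0.79%) to 0.545%, 0.516% and 1.05%. T or NK-like nuclei (1.88%) moved to 2.51% with all barcodes, 1.1% in nuclei of at least 1000 UMIs and 2.52% with mixed nuclei. IGHM in plasma-like nuclei (68.6%) moved to 75.1% with 3 markers, 46.2% at 2 UMIs or more, and 48.3% and 62% thinned to 500 and 1000 UMIs. In rods (5.89%) it moved to 0.371% at 2 UMIs or more and 1.53% thinned to 500, and in bipolar nuclei (6.09%) to 0.434%, 0.887% and, thinned to 1000, 1.96%. Plasma-like nuclei with 3 or more members (48.1%) moved to 55.9% with 3 markers, 59% at 1000 UMIs or more and 10.3% at 2 UMIs or more. The thinned shares here are a separate random draw from those in the results, and differ from them by that draw. Thinning and the 2-UMI rule lower a share by construction, and the causes of the other moves were not tested. Leaving out a retina for the shares was chosen after seeing the data. No paired analysis was possible because the AAV and vehicle retinas came from different animals and nothing in the labels ties an AAV animal to a vehicle animal.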
